A study of Mus musculus with 14 samples.

Results

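The genes described here encode the stress-inducible HSP70 chaperones and the chaperones that work beside them: Hspa1a and Hspa1b, Hsph1, Dnajb1, Dnaja1, Bag3, Chordc1, Hspb1, Hspd1 and Hspe1. They are 10 of the 54347 genes in the count tables, taken by gene symbol, and the sum of Hspa1a and Hspa1b was followed as well. The genes were selected on measured values, since earlier results of these libraries had shown heat shock genes to differ between the intrathecal groups. Their intrathecal values are therefore given as a description, with no test. The set is wider than its usual name: Hspb1 is its only small heat shock protein, Hspd1 and Hspe1 form the mitochondrial chaperonin, and Chordc1 works with HSP90.

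RNA was sequenced in 14 mouse lung libraries in 3 experiments, and every mouse, controls included, received intranasal Alternaria alternata, a fungal extract that causes allergic lung inflammation, at 2 mg per dose in 40 µl from day 0 to day 3. All mice were labelled C57BL/6. In the chimera experiment, irradiated recipients of wild-type (WT) bone marrow were WT (n = 2) or carried human JAK1 GOF, a gain-of-function form of a cytokine receptor kinase (n = 2), so the altered kinase was carried by the host's own cells and not by the transplanted marrow. The labels name no promoter for it. In the intrathecal experiment, WT mice received resiniferatoxin (RTX), a TRPV1 agonist that ablates sensory neurons, into the spinal canal at 25 ng per mouse (n = 3) or 10 µl saline (n = 2), to remove spinal afferents. In the subcutaneous experiment, WT mice received RTX at 30, 70 and 100 µg/kg (n = 3) or 100 µl saline (n = 2), to remove vagal afferents as well. The labels give no age. Nor do they say whether the libraries of a group are different mice, and p-values therefore cover only library-to-library spread, which may be technical.

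HSP70 proteins bind unfolded stretches of other proteins and release them in a cycle driven by ATP. J-domain proteins such as Dnajb1 and Dnaja1 deliver the substrate and start the cycle, and exchange factors such as Hsph1 and Bag3 end it by freeing the nucleotide. The transcription factor HSF1 drives many of these genes under heat and other protein-damaging stress by binding heat shock elements, repeats of the unit nGAAn in alternating orientation. Hspa1a and Hspa1b are made in larger amounts under stress, whereas others of the set, such as Dnaja1, are abundant at rest.

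Library totals were 18198872 to 24393000 counts, so that 3 counts corresponded to 0.123 to 0.165 CPM (counts per 1e+06 counts), and all 10 genes were far above that level in every library. All 12 lung markers examined (among them Sftpc, Scgb1a1 and Ager) were counted in each group. Libraries also differed in 2 trace transcripts that the groups do not explain. Rps3a2 was above 2 CPM in 5 libraries (WT recipient 1, both intrathecal saline libraries, and subcutaneous RTX 2 and 3), and Hmga2 was above 2 CPM, without Rps3a2, in 7 (WT recipient 2, both GOF recipients, all 3 intrathecal RTX libraries and subcutaneous saline 1). Subcutaneous saline 2 and subcutaneous RTX 1 had neither. The intrathecal groups were thus separated by these transcripts exactly as by treatment, and the library difference and RTX cannot be told apart there.

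The promoter windows of these genes were searched for the letters of that element; a match describes the sequence and is not evidence of binding. RefSeq windows of 300 bases on GRCm38.p6, from 250 bases before the annotated start to 50 after, were found for all 10 genes, 15 windows in all. They were searched on both strands for a pair of facing or opposed units, GAANNTTC or TTCNNGAA; both motifs read the same on the other strand, and matches may overlap by 3 bases. A pair was present in 10 of the 15 windows and in 9 of the 10 genes, while 15.1% of all 32851 windows held one. One more unit in register was present in 5 windows of 4 genes (Hsph1, Chordc1, Hspd1 and Hspe1) and in 0.603% of all windows. Neither window of Dnajb1 held these letters.

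The following windows, printed 5′ to 3′ with the paired units in capitals, are those of the HSP70 pair, of Hspb1 and Hspe1, which were higher where HSP70 was lower in the intrathecal experiment, and of Chordc1, which held the most pairs, 5 of them. Hspa1a lies at chr17:34972107-34972406 and Hspa1b at chr17:34959189-34959488, both on the minus strand, and their windows differ at 4 of 300 bases. Chordc1 is at chr9:18292017-18292316, Hspb1 at chr5:135887669-135887968 and Hspe1 at chr1:55087898-55088197, all on the plus strand. Hspe1 and Hspd1 are divergent neighbours, and 285 bases of this Hspe1 window are also in an Hspd1 window.
Hspa1a: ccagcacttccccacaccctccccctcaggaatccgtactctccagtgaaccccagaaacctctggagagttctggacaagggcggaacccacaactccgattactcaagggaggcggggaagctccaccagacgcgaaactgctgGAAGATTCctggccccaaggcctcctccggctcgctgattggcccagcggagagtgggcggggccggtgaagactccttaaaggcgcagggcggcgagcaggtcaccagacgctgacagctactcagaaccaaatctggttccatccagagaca
Hspa1b: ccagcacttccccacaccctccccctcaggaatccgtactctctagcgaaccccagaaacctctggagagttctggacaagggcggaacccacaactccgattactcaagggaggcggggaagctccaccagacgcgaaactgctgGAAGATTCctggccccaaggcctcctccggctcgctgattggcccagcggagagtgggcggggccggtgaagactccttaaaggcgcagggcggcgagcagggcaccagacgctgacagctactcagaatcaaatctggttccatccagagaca
Chordc1: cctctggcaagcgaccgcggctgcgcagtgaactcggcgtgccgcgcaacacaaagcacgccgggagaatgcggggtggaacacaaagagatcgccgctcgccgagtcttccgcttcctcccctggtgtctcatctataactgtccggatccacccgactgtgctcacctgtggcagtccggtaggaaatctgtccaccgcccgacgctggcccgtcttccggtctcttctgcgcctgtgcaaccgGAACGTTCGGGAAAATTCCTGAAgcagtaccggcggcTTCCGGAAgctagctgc
Hspb1: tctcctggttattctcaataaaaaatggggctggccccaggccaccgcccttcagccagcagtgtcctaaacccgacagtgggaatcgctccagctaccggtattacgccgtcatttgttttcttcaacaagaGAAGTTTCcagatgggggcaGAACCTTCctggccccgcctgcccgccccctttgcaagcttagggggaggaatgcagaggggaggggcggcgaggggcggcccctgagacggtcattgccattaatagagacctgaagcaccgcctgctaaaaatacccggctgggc
Hspe1: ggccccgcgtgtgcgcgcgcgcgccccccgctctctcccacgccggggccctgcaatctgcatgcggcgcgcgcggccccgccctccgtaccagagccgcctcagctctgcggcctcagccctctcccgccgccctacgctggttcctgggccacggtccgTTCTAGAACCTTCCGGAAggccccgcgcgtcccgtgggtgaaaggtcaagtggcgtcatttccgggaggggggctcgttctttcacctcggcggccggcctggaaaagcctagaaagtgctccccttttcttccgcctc
In both HSP70 genes the pair began at −104 from the start, and in Hspb1 pairs began at −117 and −97. In Hspe1 3 overlapping pairs began between −89 and −79.

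**Figure D1:**
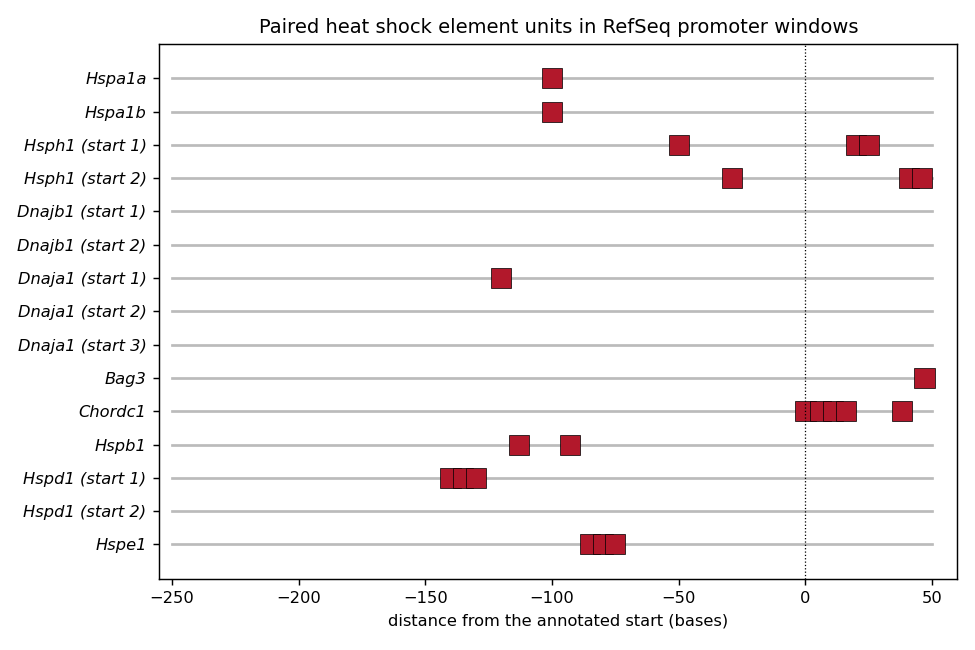
Position of paired heat shock element units (red boxes) in the 15 RefSeq promoter windows of the 10 genes, by distance in bases from the annotated start (dotted line). Genes with several starts have a line for each, numbered by genome coordinate; the windows of Dnajb1 held none.

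Hspa1a and Hspa1b encode nearly the same HSP70 protein from single-exon genes on chromosome 17 (GRCm38; Hspa1a 34969190 to 34972156 and Hspa1b 34956436 to 34959238, minus strand). Of the 31-base words of the Hspa1a transcript, 63.8% also occur in that of Hspa1b, so their reads can be split between them by the counting, and the sum is the safer measure. The sum was 803 and 517 CPM in intrathecal saline libraries and 123, 101 and 78.6 CPM in intrathecal RTX libraries. All RTX libraries were below both saline libraries. The mean was 660 ± 203 CPM after saline and 101 ± 22.3 CPM after RTX (SD, n = 2 and 3), a log2 fold change of −2.69 ± 0.25 (SE).

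In the chimera experiment the HSP70 sum was lowest of all in WT recipient 1. It was 64.8 and 129 CPM in the WT group against 272 and 186 CPM in the GOF group, and the groups did not overlap. The log2 fold change of 1.24 ± 0.46 did not pass (edgeR adjusted p = 0.464). Within libraries alike in the trace transcripts, that is without WT recipient 1, it was 0.82 ± 0.20 (edgeR adjusted p = 0.00361), and without WT recipient 2 it was 1.85 ± 0.22 (edgeR adjusted p = 1.71e-06). Both of these fits rest on a lone WT library that is assumed to vary like the GOF libraries.

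Subcutaneous RTX libraries had more HSP70 RNA than their saline controls, the opposite order to the intrathecal experiment. The sum was 353 and 221 CPM after subcutaneous saline and 639, 393 and 402 CPM after subcutaneous RTX. The groups did not overlap, and the log2 fold change of 0.72 ± 0.32 did not pass (edgeR adjusted p = 0.315). In the pair of libraries with neither trace transcript, saline 2 was at 221 CPM and RTX 1 at 639 CPM.

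Across the 6 groups the HSP70 sum spanned from WT recipients (mean 97.1 CPM) and intrathecal RTX (101 CPM), whose ranges overlapped, through GOF recipients (229 CPM) and subcutaneous saline (287 CPM), which overlapped each other, to subcutaneous RTX (478 CPM) and intrathecal saline (660 CPM), which also overlapped. Saline controls of the intrathecal and subcutaneous experiments, both WT mice given the same extract, did not overlap with each other (517 to 803 and 221 to 353 CPM). Levels set across experiments were not tested. The 5 libraries with Rps3a2 spanned 64.8 to 803 CPM and the 7 with Hmga2 alone 78.6 to 353 CPM.

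The copies did not contribute equally. Hspa1a made up 40.2% and 33.7% of the sum in intrathecal saline libraries and 29.6%, 33.7% and 35.7% in intrathecal RTX libraries, overlapping shares. In subcutaneous libraries it was 38.2% and 39.3% after saline and 30.6%, 28.3% and 24.0% after RTX, with no overlap. Chimera libraries had 40.0% to 44.2%. The widest 95% Wilson interval, in WT recipient 1, ran from 41.5% to 46.8% and covers counting error only, not the assignment of shared reads. Accordingly, Hspa1b alone separated the subcutaneous groups (218 and 134 CPM against 444, 282 and 306 CPM), whereas Hspa1a overlapped (135 and 86.8 against 196, 111 and 96.4 CPM). Their log2 fold changes were 0.95 ± 0.30 and 0.26 ± 0.40 (edgeR adjusted p = 0.221 and 0.774).

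In the other experiments both copies kept the order of the sum. After intrathecal saline Hspa1a was at 323 and 174 CPM and Hspa1b at 480.3 and 342 CPM, against 36.4, 34.0 and 28.0 CPM and 86.7, 66.8 and 50.5 CPM after intrathecal RTX. In the WT group Hspa1a was at 28.6 and 53.8 CPM and Hspa1b at 36.2 and 75.6 CPM, against 116 and 74.6 CPM and 155 and 112 CPM in the GOF group. Neither copy overlapped between groups in these experiments. Log2 fold changes were −2.90 ± 0.29 for Hspa1a and −2.58 ± 0.26 for Hspa1b after intrathecal RTX. In GOF recipients they were 1.22 ± 0.46 and 1.26 ± 0.49 and did not pass (edgeR adjusted p = 0.480 and 0.506).

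**Figure D2:**
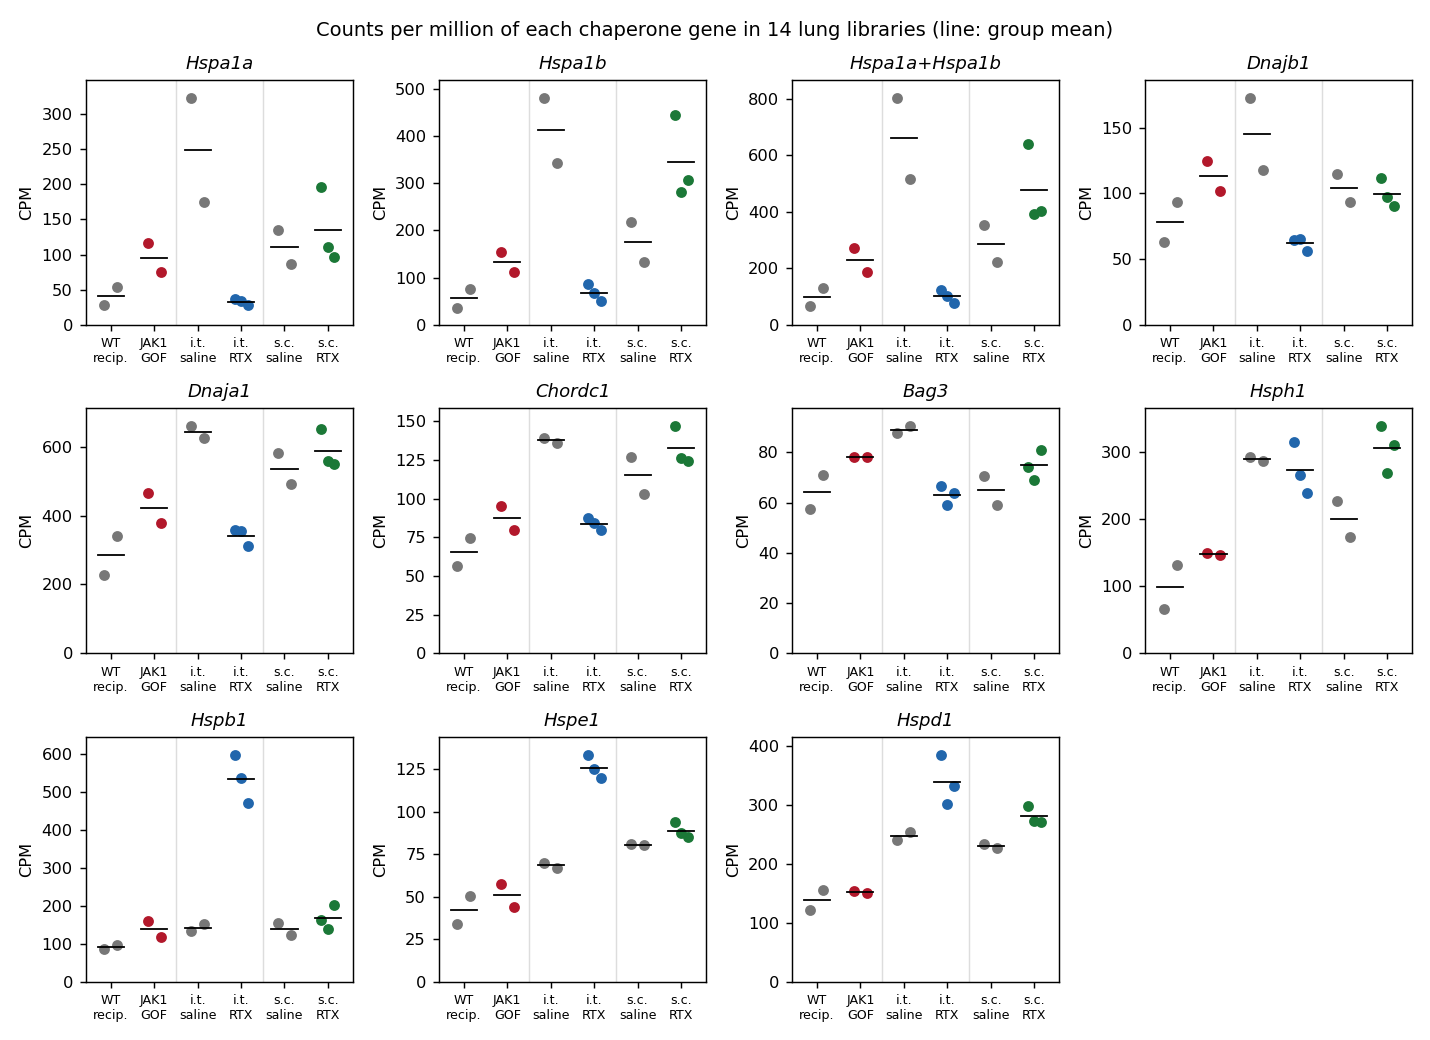
CPM of each gene and of the HSP70 sum in all 14 libraries; points are libraries, black lines group means, i.t. is intrathecal, s.c. subcutaneous and recip. recipients. Intrathecal RTX libraries are the lowest or near the lowest for Hspa1a, Hspa1b, Dnajb1 and Bag3 and the highest for Hspb1, Hspe1 and Hspd1.

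The J-domain partners of HSP70 followed its order in the intrathecal experiment with smaller differences. Dnajb1, which delivers misfolded proteins to HSP70, was at 173 and 118 CPM after saline and at 64.7, 65.4 and 55.8 CPM after RTX. Dnaja1, a J-domain protein of the cytosol that is abundant at rest, was at 659 and 625 CPM after saline and at 357, 355 and 311 CPM after RTX. Neither gene's groups overlapped, and the log2 fold changes were −1.21 ± 0.15 for Dnajb1 and −0.90 ± 0.09 for Dnaja1. Bulk RNA cannot tell fewer cells of a type from less RNA per cell, here or below.

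In the chimera experiment both J-domain genes were lowest in WT recipient 1. Dnajb1 was at 63.4 and 93.7 CPM in the WT group against 125 and 102 CPM in the GOF group. Dnaja1 was at 229 and 339 CPM in the WT group against 465 and 379 CPM in the GOF group. The groups of both were separate but the changes did not pass, at 0.54 ± 0.20 and 0.58 ± 0.20 on the log2 scale (edgeR adjusted p = 0.333 and 0.295). Subcutaneous groups overlapped for both, with Dnajb1 at 115 and 93.7 CPM after saline and 112, 97.3 and 90.5 CPM after RTX. Dnaja1 was at 581 and 490 CPM after saline and 651, 559 and 550 CPM after RTX there.

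Of the exchange factors, Bag3 went with HSP70 and Hsph1 did not in the intrathecal experiment. Bag3, which joins HSP70 to small heat shock proteins and to autophagy, was at 87.7 and 90.4 CPM after saline and at 66.4, 59.2 and 63.8 CPM after RTX, a log2 fold change of −0.48 ± 0.08. Hsph1, the HSP110 chaperone that exchanges HSP70's nucleotide, was at 292 and 286 CPM after saline and at 315, 266 and 239 CPM after RTX, with overlapping groups and a log2 fold change of −0.07 ± 0.11. It was the one gene of the 10 whose intrathecal groups overlapped.

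Hsph1 separated the other pairs of groups. It was at 227 and 173 CPM after subcutaneous saline and at 338, 269 and 311 CPM after subcutaneous RTX, a log2 fold change of 0.60 ± 0.14 (edgeR adjusted p = 0.131). In WT recipients it was at 65.4 and 132 CPM and in GOF recipients at 149 and 146 CPM, a log2 fold change of 0.58 ± 0.39 (edgeR adjusted p = 0.670) that was 0.15 without WT recipient 1. Bag3 was at 57.4 and 70.9 CPM in the WT group against 78.1 and 78.3 CPM in the GOF group, while subcutaneous saline (70.7 and 59.0 CPM) and RTX (74.3, 69.1 and 81.0 CPM) overlapped. Neither Bag3 difference passed, with edgeR adjusted p = 0.430 for the chimera and 0.360 for the subcutaneous comparison.

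Chordc1, a zinc-binding cochaperone of HSP90 whose promoter window held the most paired units, had the order of libraries most like that of HSP70 among the other genes of the set. It was at 139 and 136 CPM after intrathecal saline and at 87.7, 84.1 and 79.7 CPM after intrathecal RTX, a log2 fold change of −0.70 ± 0.07. In WT recipients it was at 56.1 and 74.6 CPM, and in GOF recipients at 95.1 and 79.7 CPM. After subcutaneous saline it was at 127 and 103 CPM and after subcutaneous RTX at 147, 126 and 124 CPM, overlapping. The chimera and subcutaneous differences, 0.43 ± 0.16 and 0.19 ± 0.11 on the log2 scale, did not pass (edgeR adjusted p = 0.321 and 0.403).

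Hspb1, the small heat shock protein HSP27 that holds unfolded proteins without ATP and binds actin, went the other way from HSP70 in the intrathecal experiment. It was at 132 and 153 CPM after saline and at 598, 536 and 471 CPM after RTX. The means were 143 ± 14.8 and 535 ± 63.0 CPM (SD, n = 2 and 3), a log2 fold change of 1.92 ± 0.12. The intrathecal RTX libraries stood apart from all others: the other 11 libraries lay between 86.0 and 202 CPM, and the 4 others with Hmga2 but not Rps3a2 between 97.5 and 161 CPM. With the trace transcripts as a term in a fit of all 14 libraries the intrathecal log2 fold change was 1.70 ± 0.27. That term was set by libraries of the other experiments, so the fit cannot separate the library difference from RTX in the intrathecal experiment.

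In the chimera experiment Hspb1 was at 86.0 and 97.5 CPM in the WT group against 161 and 118 CPM in the GOF group, groups that did not overlap, with a log2 fold change of 0.61 ± 0.16 (edgeR adjusted p = 0.122). After subcutaneous saline it was at 154 and 124 CPM and after subcutaneous RTX at 163, 139 and 202 CPM, which overlapped (0.26 ± 0.17 on the log2 scale, edgeR adjusted p = 0.458). Heart muscle is rich in small heat shock proteins, and its markers were present in every group. The summed level of 12 heart muscle markers was 278 to 396 CPM in WT recipients and 621 to 624 CPM in GOF recipients, with all 12 higher in GOF recipients. It was 158 to 256 CPM after intrathecal saline and 151 to 347 CPM after intrathecal RTX, overlapping. The part of heart muscle RNA in these Hspb1 values was not tested.

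Hspd1 and Hspe1 encode the HSP60 ring and the HSP10 lid of the mitochondrial chaperonin and are transcribed away from each other on chromosome 1 (GRCm38; Hspd1 55077835 to 55088243, minus strand, and Hspe1 55088132 to 55091307, plus strand). Both were higher after intrathecal RTX. Hspe1 was at 70.0 and 67.0 CPM after saline and at 134, 125 and 119.7 CPM after RTX, a log2 fold change of 0.90 ± 0.08. Hspd1 was at 240.1 and 254 CPM after saline and at 385, 302 and 333 CPM after RTX, a log2 fold change of 0.48 ± 0.11. With the trace transcripts as a term, which was set by libraries of the other experiments, Hspe1 was at 0.48 ± 0.18 on the log2 scale. Over all alternatives run, the lowest intrathecal value of Hspd1 was 0.16, against 0.38 with a library left out.

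The chaperonin pair was also separate after subcutaneous RTX, by small amounts. Hspe1 was at 81.0 and 80.3 CPM after saline and at 93.8, 87.8 and 85.4 CPM after RTX. Hspd1 was at 234 and 227 CPM after saline and at 298, 273 and 272 CPM after RTX. All RTX libraries were above both saline libraries, and the log2 fold changes of 0.13 ± 0.07 and 0.27 ± 0.07 did not pass (edgeR adjusted p = 0.372 and 0.147). Chimera groups overlapped for both genes, with Hspe1 at 34.0 and 50.5 CPM in WT and 57.3 and 44.3 CPM in GOF recipients. Hspd1 was at 121 and 157 CPM in WT and 154 and 150.2 CPM in GOF recipients.

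Copies of the chaperonin and J-domain genes elsewhere in the genome took few reads. The tables list 13 pseudogenes or related sequences named after these genes, 7 of them at 0 in every library, and none had more than 10.6 counts in any library.

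**Figure D3:**
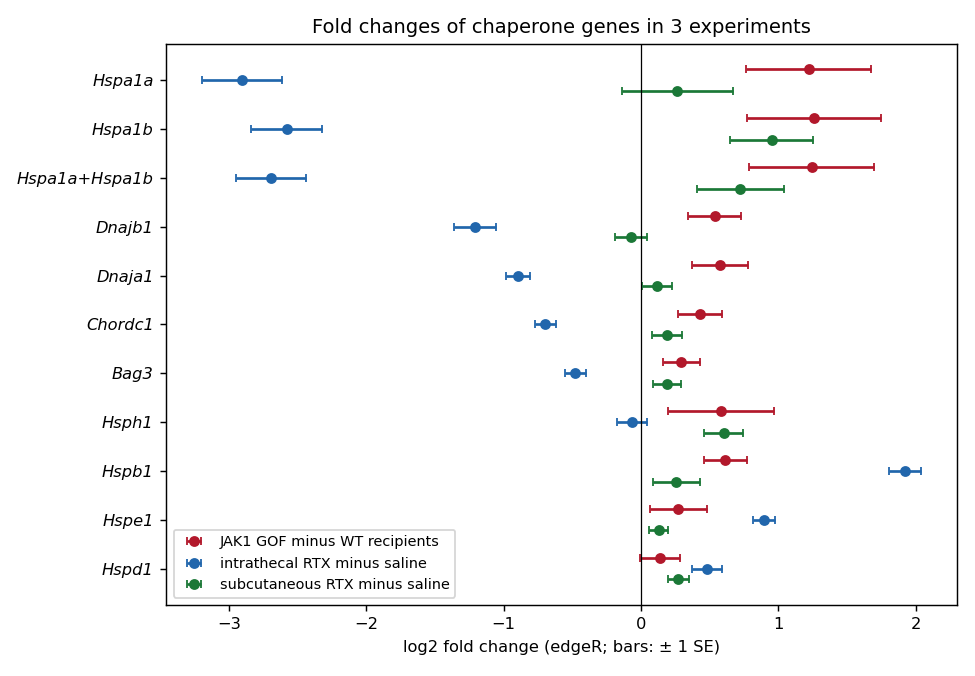
Log2 fold changes of the 10 genes and the HSP70 sum in 3 comparisons, with bars of 1 SE on either side. Intrathecal values (blue) run from −2.90 for Hspa1a to 1.92 for Hspb1, while chimera values (red) are all above 0.

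Counted over the set, the intrathecal groups did not overlap in 3 genes that were higher after RTX (13.5% of all genes tested) and in 6 that were lower (16.8%). Since these values led to the choice of the genes, nothing is read from these counts. With the trace transcripts as a term in a fit of all 14 libraries, Hsph1 was at −0.95 on the log2 scale. That fit cannot separate the library difference from RTX either.

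In the chimera comparison 0 of 10 genes passed with edgeR (0.717% of 17298 genes did, 0.173% higher and 0.543% lower), although all 10 passed the filter on low counts. An unadjusted p under 0.05 was reached by 5 of them (Dnajb1, Dnaja1, Bag3, Chordc1 and Hspb1; 11.6% of all genes), DESeq2 called 1, Hspb1 (1.61% of all genes), and limma voom 0 (0.26%). GOF recipients were above WT recipients without overlap in 8 of 10 (19.6%), and the median log2 fold change was 0.56 against 0.00045 for all genes tested. WT recipient 1 was the lowest library of the experiment for each of the 10 genes. The number called was 2 without WT recipient 1 (5.16% of all genes), 7 without WT recipient 2 (1.69%) and 1 without GOF recipient 2 (0.516%), each with a lone library in one group. Leaving out GOF recipient 1, which also left a lone library in its group, did not raise the number called. The number called thus depended on the library left out. Sums of markers of other cell types differed between WT and GOF recipients. The summed level of 6 fat markers was 29.9 to 52.7 CPM in WT and 96.7 to 170 CPM in GOF recipients. That of the 12 lung markers was 23329 to 25485 and 28609 to 30005 CPM. By mean CPM all 6 fat markers and 9 lung markers were higher in GOF recipients, and 3 lung markers were not. Of the fat and lung markers tested, 0 passed. Heart muscle markers were higher in GOF recipients as well, as given above. The part of these cell types in the chaperone values was not tested.

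In the subcutaneous comparison edgeR called 0 of 10 genes and 0% of 17363. An unadjusted p under 0.05 was reached by 3 of the 10 (Hspa1b, Hsph1 and Hspd1; 18.2% of all genes), and limma voom called 0 (0% of all genes). DESeq2 called 2 (4.44% of all genes), Hsph1 at 0.61 and Hspd1 at 0.28 on the log2 scale (DESeq2 adjusted p = 0.00197 and 0.0321). RTX libraries were above saline libraries without overlap in 4 of 10 (Hspa1b, Hsph1, Hspd1 and Hspe1; 20.5% of all genes). The median log2 fold change was 0.22 against −0.0045 for all genes tested. The summed level of 12 lung markers differed between these groups, at 26189 to 34727 CPM after saline and 19594 to 22723 CPM after RTX. Of the 12, 1 had a log2 fold change above 0 (Slc34a2, 0.13), and 0 were past the threshold. The part of lung cell types in the chaperone values was not tested.

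The intrathecal and subcutaneous experiments thus gave different orders of the same genes, but the difference between the routes was not tested, because the intrathecal values had led to the choice of genes. Side by side, log2 fold changes after intrathecal and subcutaneous RTX were −2.69 and 0.72 for the HSP70 sum, −0.90 and 0.12 for Dnaja1, −0.70 and 0.19 for Chordc1, and 1.92 and 0.26 for Hspb1. Only the chaperonin genes were separate in the same direction by both routes, at 0.90 and 0.13 for Hspe1 and 0.48 and 0.27 for Hspd1.

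Levels were also set per length, taken as all annotated exons of a gene together, which can be longer than the transcript that is made. This length was 8629 bases for Dnaja1 and 1031 bases for Hspb1, and the order of genes depends on it. In plain CPM Dnaja1 was above Hspb1 after intrathecal saline, with means of 642 and 143 CPM. Per kilobase of annotated exon (GENCODE M21), Hspa1b had a mean level of 147 CPM and Hspb1 of 138 CPM after intrathecal saline. After intrathecal RTX these levels were 24.3 and 519 CPM per kilobase. In every other group Hspb1 also had the highest level per kilobase of the 10, from 89.0 in WT recipients to 163 CPM after subcutaneous RTX.

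Likeness between genes was measured as Pearson's r of log2(CPM + 1), centred within each experiment, and is given as a description. The 14 points share the libraries' groups, so differences between groups enter r. With the HSP70 sum, r was 0.98 for Chordc1, 0.97 for Dnaja1, 0.95 for Dnajb1 and 0.91 for Bag3. It was −0.60 for Hspb1, −0.46 for Hspe1 and −0.29 for Hspd1. In the 9 libraries of the other experiments all of these genes went with HSP70: r was 0.81 for Hspb1, 0.84 for Hspe1, 0.84 for Hspd1 and 0.93 for Hsph1. The negative r over 14 libraries carries the intrathecal group difference, which had led to the choice of these genes. Within the intrathecal RTX libraries the HSP70 sum (123, 101 and 78.6 CPM) and Hspb1 (598, 536 and 471 CPM) had the same order. Within the intrathecal saline libraries (803 and 517 CPM, 132 and 153 CPM) their orders were opposite.

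**Figure D4:**
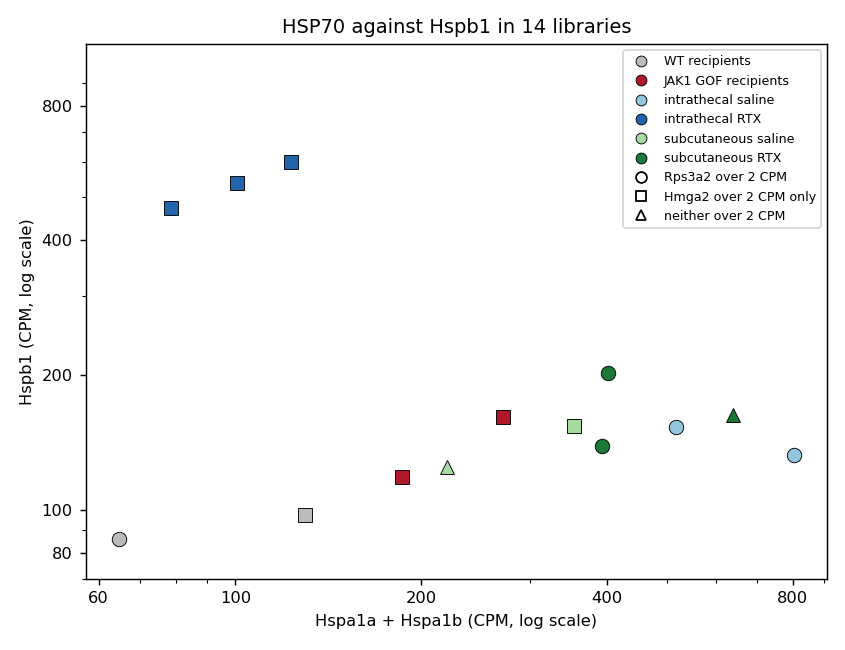
Hspb1 against the HSP70 sum in CPM on log axes, with colour for group and shape for the trace transcripts of each library. The 3 intrathecal RTX libraries lie at 471 to 598 CPM of Hspb1 and 78.6 to 123 CPM of HSP70, away from the other 11.

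Among 11042 other genes with a mean of at least 10 CPM, those most like the HSP70 sum over 14 libraries were Fxr1 (r = 0.95), Ccdc117 (r = 0.93), Evi5 (r = 0.93), Dedd2 (r = 0.92) and Zfp9 (r = 0.92). Those most like Hspb1 were Gins4 (r = 0.89), Hikeshi (r = 0.88), Pex6 (r = 0.88), Hnrnpc (r = 0.88) and Mrpl52 (r = 0.86). These r carry the intrathecal difference that led to the choice of the set. In the 9 libraries of the other experiments r with the HSP70 sum was 0.92, 0.76, 0.85, 0.81 and 0.91 in the order named. With Hspb1 it was 0.96, 0.87, 0.73, 0.37 and 0.74. Hikeshi encodes a carrier that takes HSP70 into the nucleus under heat stress. Among them, Fxr1 had means of 108 and 88.1 CPM and Hikeshi of 24.5 and 30.2 CPM after intrathecal saline and RTX.

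A list of 95 other chaperone genes and regulators put these values in context, of which 91 were tested in each comparison. After intrathecal RTX, where edgeR called 0.311% of 17360 genes (0.109% higher and 0.202% lower), 0 of the 91 rose and 1 fell: Dedd2, an apoptosis-related gene induced by heat, which was at 55.2 and 44.8 CPM after saline and at 25.5, 29.9 and 22.1 CPM after RTX (log2 fold change −0.94 ± 0.13, edgeR adjusted p = 0.0350). Because the list was chosen with earlier results of these data known, the Dedd2 call is given as a description. The median of the list was 0.03 against 0.01 for all genes. The number called was 0 without saline 1, RTX 1 or RTX 2, and 2 without saline 2.

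Neither the main constitutive chaperones of the list nor Hsp90aa1 passed after intrathecal RTX. Hspa8, the HSP70 of unstressed cells, was at 3128 and 3320 CPM after saline and at 2390, 2359 and 1970 CPM after RTX (−0.51 ± 0.10 on the log2 scale, edgeR adjusted p = 0.0874). Hsp90aa1 and Hsp90ab1, the inducible and the constitutive HSP90 of the cytosol, were at 0.47 ± 0.10 and 0.29 ± 0.10 (edgeR adjusted p = 0.107 and 0.321). Hspa5, the HSP70 of the endoplasmic reticulum, was at 0.27 ± 0.11 (edgeR adjusted p = 0.404). Hsf1 itself was at 47.3 and 49.2 CPM after saline and at 51.3, 50.8 and 48.4 CPM after RTX (0.07 ± 0.08, edgeR adjusted p = 0.760). All 7 tested small heat shock proteins other than Hspb1 lay between −0.0017 and 0.36, with Cryab, the alpha B crystallin, at 0.09 ± 0.10 (edgeR adjusted p = 0.758).

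In the chimera comparison 1 of the 91 genes rose and 0 fell. Hspb7, a small heat shock protein of heart muscle, was at 13.96 and 13.4 CPM in the WT group against 26.4 and 24.6 CPM in the GOF group (0.91 ± 0.15 on the log2 scale, edgeR adjusted p = 0.0228). Heart muscle markers moved with it, 7 of 12 rising, and their part in the Hspb7 value was not tested. No gene of the list was called without GOF recipient 1, and 3 were called without WT recipient 2. Cryab was at 0.41 ± 0.13 and Hspa8 at 0.28 ± 0.22, and neither passed (edgeR adjusted p = 0.219 and 0.682). Hsp90aa1 was at 0.26 ± 0.19, Hsp90ab1 at 0.25 ± 0.21, Hspa5 at −0.21 ± 0.22 and Hsf1 at 0.17 ± 0.12, none of them past the threshold (edgeR adjusted p = 0.665, 0.706, 0.775 and 0.653).

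In the subcutaneous comparison edgeR called 0 of the 91 genes, and 18 had an unadjusted p under 0.05 (18.2% of all genes did). DESeq2 called 6 (4.44% of all genes) and limma voom 0. Cryab was at 173 and 154 CPM after saline and at 115, 108 and 126 CPM after RTX (−0.50 ± 0.09 on the log2 scale, edgeR adjusted p = 0.100), and all 7 tested small heat shock proteins of the list were below 0. All 12 heart muscle markers had a lower mean after subcutaneous RTX (0 past the threshold). Their sum was 478 CPM in saline 1 and 130 CPM in saline 2, against 158, 196 and 155 CPM after RTX. In saline 2 this sum was thus below all RTX libraries, while Cryab was above them. The part of heart muscle RNA in the Cryab value was not tested. Hspa5 was at 0.37 ± 0.11 and Hspa8 at 0.18 ± 0.10 (edgeR adjusted p = 0.150 and 0.371). Hsp90aa1, Hsp90ab1 and Hsf1 were at 0.15 ± 0.11, 0.18 ± 0.09 and 0.08 ± 0.08 (edgeR adjusted p = 0.486, 0.318 and 0.657).

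**Figure D5:**
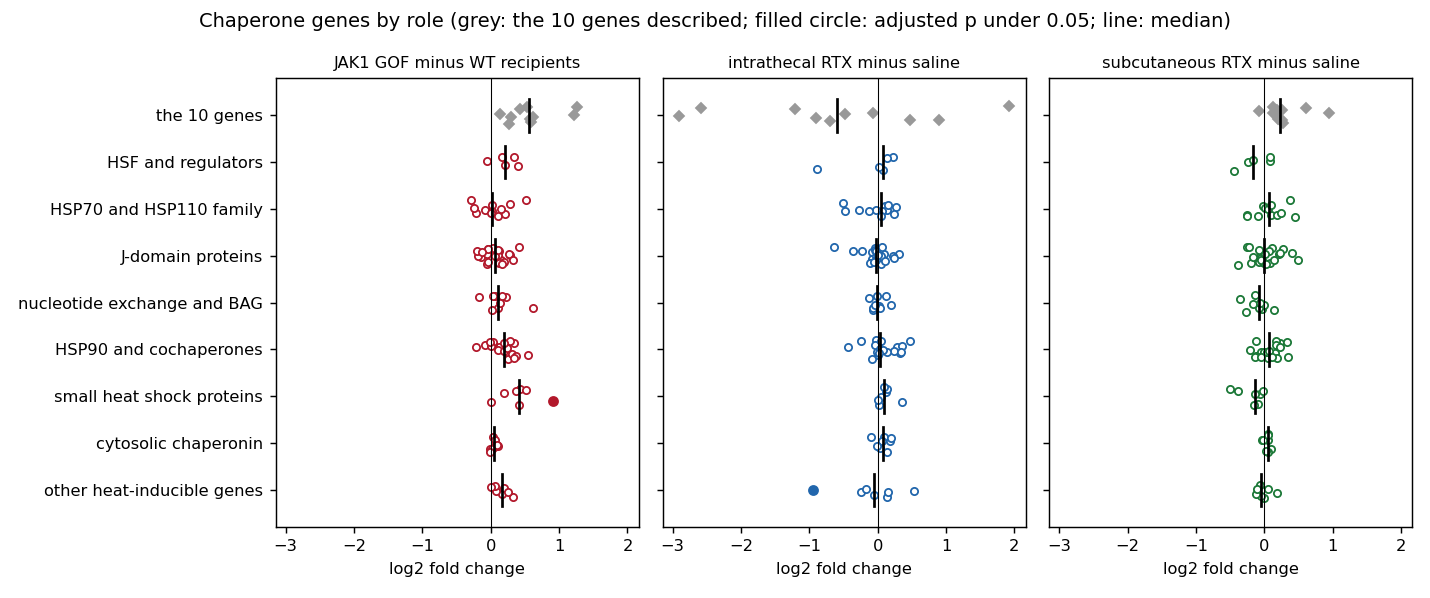
Log2 fold changes of the 10 genes (grey diamonds) and of 91 other chaperone genes by role (circles, filled where the edgeR adjusted p was under 0.05), with the median of each row as a line, for 3 comparisons. The 10 genes span −2.90 to 1.92 in the intrathecal panel, where the other genes lie between −0.94 and 0.53. Intrathecal values had led to the choice of the 10 genes, so nothing is read from their wider span.

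Signs of handling and of stress in the endoplasmic reticulum were set beside these values. The summed level of 12 immediate early genes, which rise within minutes of tissue handling, was 760 to 871 CPM after intrathecal saline and 816 to 874 CPM after intrathecal RTX, and overlapped. That of 15 genes of endoplasmic reticulum stress was 6112 to 6758 CPM after intrathecal saline and 7165 to 8033 CPM after intrathecal RTX. Of the 15, 11 were higher, while Ddit3, Atf4, Dnajb9 and Herpud1 were lower. Of all 17360 genes tested, 8943 had a log2 fold change above 0. The same sum was 6464 to 7191 CPM after subcutaneous saline and 7764 to 8597 CPM after subcutaneous RTX. There 13 of 15 were higher, and 8549 of all 17363 genes tested were above 0. Of the 15 genes only Herpud1, which serves degradation of misfolded proteins at that membrane, passed after intrathecal RTX. It fell by 0.85 on the log2 scale (edgeR adjusted p = 0.00598). Because the list was chosen with earlier results of these data known, this call is given as a description. In the chimera experiment WT recipient 1, the lowest library for the chaperone genes described, had an immediate early sum of 1023 CPM, against 816 to 864 CPM in the others. Its endoplasmic reticulum stress sum was 3511 CPM, against 3883 to 4995 CPM in the others. The part of these marker genes in the chaperone values was not tested.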

How the data were processed

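Estimated counts per gene were deposited by the authors in 1 table per experiment. Per the submitters' processing notes, FastQC 0.11.8, Trim Galore 0.6.6, STAR 2.7.5b and Salmon 1.2.1 were used with GRCm38; for the annotation release and strand setting, the entry is "not given in the sources used here". Per the labels' protocols, mRNA was enriched with oligo-dT beads. Counts were rounded, and separate fits per experiment used edgeR 4.0.16 (R 4.3.3; TMM, filterByExpr with minimum counts of 10 and 15 in all, robust quasi-likelihood F test, Benjamini-Hochberg over all genes tested, threshold 0.05), a procedure tested on simulated data. Values per library and means ± SD are CPM of the column total. For the HSP70 sum, both rows were replaced by their sum and the fit repeated. Alternatives were DESeq2 1.42.0, limma 3.58.1 voom, other scalings, no filter, all 14 libraries with and without the trace transcripts (above 2 CPM) as a term, a replicate block and leaving out each library. Genes named outside the set were those past the threshold, 6 fixed chaperones and the 5 most alike (at least 10 CPM). The genes and lists were chosen with earlier results of these data known. Replicates differed by more than sampling noise (chi-square per degree of freedom 8.91 to 21.3). Positions came from GENCODE M21, in which all 10 identifiers matched.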

Additional observations from a re-analysis of the deposited data

Results flagged for a closer look

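After RTX, Hspa1b was lower in all 3 intrathecal libraries and higher in all 3 subcutaneous libraries than in every saline control of the same route. The subcutaneous log2 fold change minus the intrathecal one was 3.53 for Hspa1b and 3.42 for the sum of Hspa1a and Hspa1b. The difference between the routes was not tested, since the intrathecal values had led to the choice of these genes.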

How the results depend on the processing

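The log2 fold change of the HSP70 sum kept its sign under every alternative run in each comparison. The intrathecal value was −2.70 in a fit of all 14 libraries and ranged from −2.97 to −2.35 with a library left out. Other alternatives moved the 2 copies further. Over all alternatives the lowest intrathecal values were −4.08 for Hspa1a and −3.76 for Hspa1b, against −3.28 and −2.80 with a library left out. With a library left out, the chimera value of the sum ranged from 0.82 to 1.85 and the subcutaneous one from 0.43 to 1.10. Of the 10 genes, the chimera count of 0 called was 3 with no low-count filter (807 of 28728 genes called) and 1 with DESeq2 (283 of 17588). The intrathecal values chose these genes, so the number past the threshold there is no test and only describes the fits. It was 7 as fitted alone (54 of 17360 genes called) and 1 with all 14 libraries (7 of 18364). With the trace transcripts as a term it was 4 (5 of 18364), although within the intrathecal experiment that term cannot be told apart from RTX. The subcutaneous count of 0 was 2 with DESeq2 (683 of 15379 genes called). It was 2 with the trace transcripts as a term (Hspa1b and Hsph1, with 184 of 18364 genes called), and 0 with each RTX library left out. Of the other chaperone genes, the chimera count of 1 was 3 with no filter and 2 with DESeq2. It was 0 with all 14 libraries (50 of 18364 genes called) and 0 with the trace transcripts (177 of 18364). The intrathecal count of 1 was 10 with no filter (655 of 28904 genes called) and 7 with DESeq2 (244 of 16015). It was 0 with the trace transcripts, and 0 to 1 with an RTX library left out. The subcutaneous count of 0 was 6 with no filter (807 of 28767 genes called), 6 with DESeq2 and 1 with the trace transcripts. It was 0 with each RTX library left out. The causes were not tested. The sign changed under some alternative for Hspd1 in the chimera, Hsph1 in the intrathecal, and Hspa1a and Dnajb1 in the subcutaneous comparison, none of which was called. With the replicate block the counts of the 10 genes called were 0, 7 and 0 as without it; the labels share only numbers (correlation of deviations 0.02 in the chimera, −0.27 and −0.20 in the intrathecal and −0.11 and −0.09 in the subcutaneous experiment). Depth did not limit these genes: the lowest value of any of the 10, 28.0 CPM, lay far above the 0.165 CPM of 3 counts.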
